A study of Mus musculus with 20 samples.

Results

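Transcripts of 41 genes that build the primary cilium were measured by RNA sequencing in 20 mouse livers or liver tumors. The genes were given as a fixed list of symbols with the intraflagellar transport complexes (11 genes of IFT-B and 5 of IFT-A), the BBSome (6 subunits and 2 chaperonin-like factors), the transition zone (10), the ciliary motors (4) and a group of ciliary membrane and centriole proteins (3). They are 41 of the 50559 genes in the count tables. Of these, 40 passed the filter of at least 1 CPM by library total alone in at least 5 libraries, as did 14333 genes in all. The CPM values given below are counts scaled by library total and TMM factor. The list had been selected on values of these same samples. The difference used was that between the tumors driven by FGF19 or its analog and the sgTrp53 tumors. This difference and the one between sgTrp53 tumors and livers are therefore given below as a description, without a test. The tumors driven by FGF19 or its analog also stand in the comparison with livers, which is therefore not independent of the selection.

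The 20 libraries came from 4 groups of 5, each from separate female C57BL/6J mice that were 6 to 8 weeks old at the time of gene transfer. Aldafermin + MYC tumors carried plasmids for Aldafermin, an engineered analog of the bile acid hormone FGF19, and for the oncogene MYC, FGF19 + MYC tumors carried human FGF19 and MYC, and sgTrp53 + MYC tumors carried MYC and a Cas9 construct with a guide against Trp53. Plasmids were delivered into the tail vein by hydrodynamic injection, which reaches a part of the hepatocytes only, along with the Sleeping Beauty transposase SB100X. The control livers are called non treated in the sample labels, whereas the methods describe an RFP plasmid, and the condition of the sgTrp53 + MYC tumors was read from their titles because their treatment field says none. Each tumor library was made from a single tumor, and a bulk library cannot tell fewer cells of a type from less RNA per cell.

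The primary cilium is a single antenna of microtubules that grows from the mother centriole of resting cells and collects signals such as Hedgehog. Kinesins pull trains of IFT-B and IFT-A outward and a ciliary dynein pulls them back, the BBSome carries membrane proteins on these trains, and the transition zone is the gate at the base. In the liver the cilium is known from cholangiocytes, the cells that line the bile ducts, while mature hepatocytes largely lack it, and dividing cells take their cilium apart before mitosis.

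Many cilium genes are controlled by RFX transcription factors, which bind a palindromic motif called the X-box, and the promoters were therefore searched for it. RefSeq promoter windows of GRCm38.p6, from 250 bases before to 50 bases after the gene start, were found for 37 of the 41 genes, and none was at hand for Ift80, Ift81, Ift122 and Dync2li1. The motif GTTGCC followed by 1 to 3 bases and GGNAAC, on either strand, was in the window of 5 of these 37 genes (13.5%), against 0.539% of the 32851 promoter windows in the table. A looser form, GTTNCC, 1 to 3 bases and GNNAAC, which contains the first, was in 6 of the 37 and in 1.23% of all windows. GTTGCC alone was in 19 of the 37 (51.4%) and in 12.5% of all windows. In these shares the 37 genes, which have 40 windows, were counted by gene, and all promoters by window. The 6 matches are shown because they mark members with very different behavior in the tumors described below. Each is written on the strand of the gene with the motif in capitals, in a window of 30 bases.
Ift57, chr16:49699226-49699255, plus strand: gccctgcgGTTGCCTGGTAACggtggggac
Bbs7, chr3:36613489-36613518, minus strand: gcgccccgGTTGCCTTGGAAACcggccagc
Tctn3, chr19:40612350-40612379, minus strand: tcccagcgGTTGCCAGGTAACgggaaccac
Mks1, chr11:87853183-87853212, plus strand: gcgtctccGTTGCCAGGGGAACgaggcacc
Tctn1, chr5:122264411-122264440, minus strand: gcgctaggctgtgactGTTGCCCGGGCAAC
B9d1, chr11:61505130-61505159, plus strand: taccgtctGTTTCCAAGACAACcgagagcc
The last one matched only the looser form. The motif began 60 bases before the gene start in Ift57, 121 in Bbs7, 140 in Tctn3, 24 in Mks1 and 6 in B9d1, and 37 bases into the gene in Tctn1. A match describes these letters and does not show that a factor bound there.

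Reads counted on genes numbered 18004977 to 66354724 a library, and 1 CPM corresponded to 14.0 to 86.9 reads (Bbs12 in livers rests on 1 to 15 reads a library). The sgTrp53 + MYC libraries are in a count table of their own, in which 11.1% to 14.6% of reads were ambiguous between genes, against 3.03% to 6.30% in the table of the other 3 groups. The table and the sgTrp53 + MYC group cannot be told apart in any comparison between them. Trp53, the targeted gene, was at 46.8 ± 22.6 CPM (SD, n = 5) in sgTrp53 + MYC tumors and 32.8 ± 2.98 in livers. It was higher in the other tumors, at 139.5 ± 17.9 with FGF19 and 138 ± 32.5 with Aldafermin. Hepatocyte markers were expressed in all groups, but their summed level of 4877 to 30716 CPM in tumors lay below the 190322 to 241363 CPM of livers.

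As a group, the cilium genes were lowest in livers and highest in sgTrp53 + MYC tumors. The mean log2 CPM over the 40 genes was 2.01, 2.16, 2.22, 1.93 and 2.16 in the 5 livers. It was 2.81, 2.71, 2.61, 2.70 and 2.60 in Aldafermin + MYC tumors and 2.68, 2.51, 2.51, 2.71 and 2.52 in FGF19 + MYC tumors. In sgTrp53 + MYC tumors it was 3.14, 3.24, 3.25, 2.96 and 2.97. All tumors lay above all livers, all sgTrp53 + MYC tumors lay above all other tumors, and the Aldafermin + MYC and FGF19 + MYC tumors overlapped. The place of the sgTrp53 + MYC tumors is a description, since the list was selected on it and their counts are in another table. The group means were 2.10 ± 0.12 (SD, n = 5) in livers, 2.58 ± 0.10 in FGF19 + MYC tumors, 2.68 ± 0.09 in Aldafermin + MYC tumors and 3.11 ± 0.14 in sgTrp53 + MYC tumors. The mean hides opposite movements of single genes, which the map of all libraries shows.

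**Figure D1:**
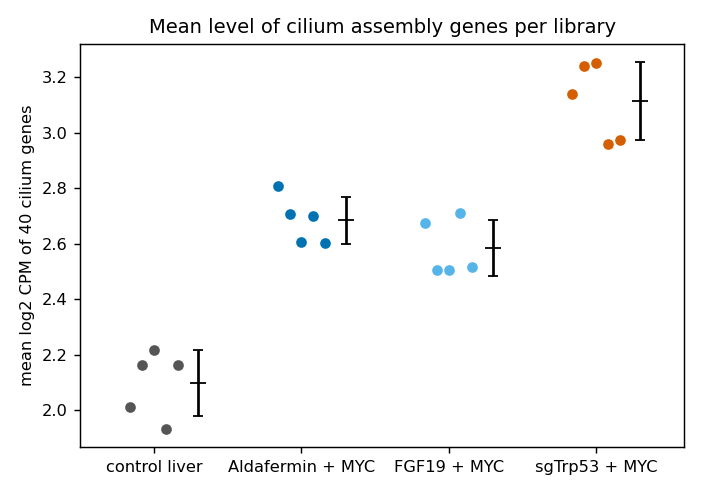
Mean log2 CPM of the 40 tested cilium genes (y axis) in each of the 20 libraries, 5 per group (points), with the group mean and SD (black). Livers lie between 1.93 and 2.22, and sgTrp53 + MYC tumors between 2.96 and 3.25, above every other tumor. The list was selected on the difference between sgTrp53 + MYC and the other tumors, so their order is a description.

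**Figure D2:**
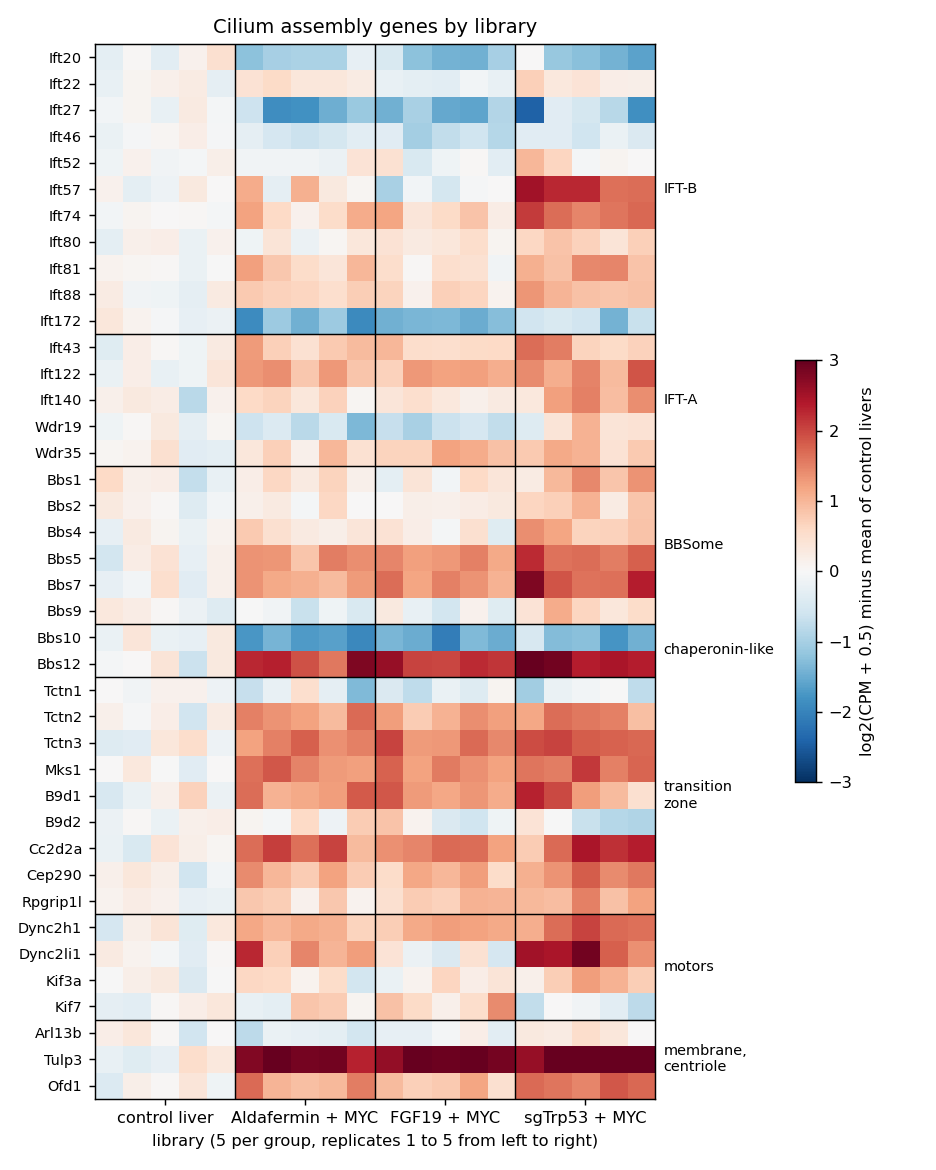
Level of each tested cilium gene (rows, grouped by role) in each library (columns, 5 per group), as log2(CPM + 0.5) minus its mean in control livers, red above and blue below that mean. Tulp3 and Bbs12 are red in all tumors, Bbs10 and Ift172 are blue in all tumors, and Ift57 is deep red in sgTrp53 + MYC tumors.

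The genes differed widely in their level per length of the transcript (CPM per kilobase of the GENCODE canonical transcript). In livers Ift20 was highest with 30.9 CPM per kilobase, followed by Ift52 with 16.9 and Ift27 with 13.1, all of IFT-B. Ift57, of the same complex, was at 0.126, and Bbs12 at 0.169. In FGF19 + MYC tumors Ift52 (16.4) and Ift20 (14.3) still led, and Tulp3 reached 6.85 from 0.773 in livers. Ift52 had 35.1 to 43.2 CPM in livers and Ift20 had 34.0 to 59.2 CPM, on transcripts of 2281 and 1406 bases. Nphp4, a transition zone protein, was the gene that did not pass the filter, with at most 0.374 CPM in any library.

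The first comparison asked how the tumors of the hormone and its analog differed from liver, with the mean of both tumor groups (10 libraries) set against the 5 livers. Of the 40 tested cilium genes, 20 rose (50%, against 39.2% of all genes tested) and 6 fell (15%, against 34.5% of all genes tested), by edgeR's quasi-likelihood test with Benjamini-Hochberg adjustment over all genes and a threshold of 0.05. Their median log2 fold change was 0.61, against 0.10 for all genes tested. By role, 7 of 9 tested transition zone genes rose and 0 fell, and 3 of 11 IFT-B genes rose and 4 fell, and the difference between roles was not tested. Adjusted p values below are from this test unless another is named.

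The tested transition zone genes had a median log2 fold change of 1.39. B9d1, whose product has the B9 domain of the gate complex, had 0.359, 0.550, 0.839, 1.43 and 0.558 CPM in livers, 3.30, 1.98, 2.13, 2.35 and 3.79 in Aldafermin + MYC tumors and 3.85, 2.40, 2.20, 2.49 and 2.07 in FGF19 + MYC tumors. Every tumor of these groups exceeded every liver, and the log2 fold change was 1.84 ± 0.39 (SE; adjusted p = 0.000282), although 16.1% of its exon bases overlap an antisense gene. Tctn3, a tectonic, had 0.861, 0.916, 1.77, 2.05 and 1.12 CPM in livers, 3.62, 4.61, 5.66, 4.11 and 4.60 in Aldafermin + MYC tumors and 6.75, 3.82, 3.90, 5.28 and 4.36 in FGF19 + MYC tumors, and rose by 1.80 ± 0.24 on the log2 scale (adjusted p = 1.11e-06). It too was above all livers in all 10 tumors. None of B9d1, Tctn3 and Tctn2 would have met the filter on the livers alone, so their rise is not independent of the filter. Mks1 (1.63), Cc2d2a (1.66), Tctn2 (1.39), Cep290 (1.07) and Rpgrip1l (0.76) also rose, as log2 fold changes. Cep290, the large linker of membrane and microtubules at the gate, had 3.23, 3.78, 3.31, 1.71 and 2.67 CPM in livers, 8.50, 6.23, 5.15, 7.23 and 5.16 in Aldafermin + MYC tumors and 4.41, 7.03, 6.15, 7.48 and 4.39 in FGF19 + MYC tumors. Tctn1 went the other way without passing the test (-0.33 ± 0.26; adjusted p = 0.272). Its level was 5.81, 5.39, 6.36, 6.42 and 5.14 CPM in livers, 3.42, 4.94, 8.43, 4.69 and 2.02 in Aldafermin + MYC tumors and 4.13, 3.24, 5.03, 4.34 and 6.15 in FGF19 + MYC tumors, with overlap between groups, and 31.5% of its exon bases overlap genes on the other strand. Tctn1, Tctn3, Mks1 and B9d1 are the transition zone genes with the motif shown above.

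Among the membrane and centriole proteins, Tulp3, an adaptor that brings receptors into the cilium with the help of IFT-A, changed most. It had 2.08, 1.83, 2.03, 3.82 and 3.27 CPM in livers, 20.3, 24.6, 21.4, 21.9 and 14.5 in Aldafermin + MYC tumors and 18.4, 26.0, 22.8, 27.1 and 21.4 in FGF19 + MYC tumors. The lowest of these tumors was far above the highest liver, and the 8.38-fold rise corresponded to a log2 fold change of 3.07 ± 0.21 (adjusted p = 1.08e-10). Ofd1, a protein of centrioles, rose by 1.12 ± 0.19 (adjusted p = 2.41e-05). Arl13b, a GTPase of the ciliary membrane, did not pass the test (-0.32 ± 0.17; adjusted p = 0.102), with 7.96, 8.91, 7.07, 4.44 and 6.93 CPM in livers, 3.76, 5.98, 5.74, 5.58 and 4.57 in Aldafermin + MYC tumors and 5.75, 5.72, 6.55, 8.04 and 5.41 in FGF19 + MYC tumors. It passed the threshold as lower in 3 of 27 alternative fits, among them the one without liver replicate 4 (adjusted p = 0.0185), which had the lowest Arl13b level of the livers.

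The chaperonin-like factors, which help to assemble the BBSome, moved in opposite directions. Bbs12 had 0.359, 0.403, 0.663, 0.0683 and 0.598 CPM in livers, 3.76, 3.97, 2.85, 2.15 and 5.67 in Aldafermin + MYC tumors and 4.97, 3.13, 3.05, 3.73 and 3.44 in FGF19 + MYC tumors, a rise of 8.47-fold (3.08 ± 0.41 on the log2 scale; adjusted p = 1.23e-06). No liver reached 1 CPM of Bbs12, so it passed the filter through tumors and its rise is not independent of the filter. Bbs10 had 6.46, 9.75, 6.49, 6.21 and 9.24 CPM in livers, 1.89, 2.53, 1.97, 2.08 and 1.60 in Aldafermin + MYC tumors and 2.57, 2.37, 1.39, 2.67 and 2.35 in FGF19 + MYC tumors, and its level in tumors was 3.57-fold lower (-1.83 ± 0.22; adjusted p = 4.09e-07). For neither gene did the tumors of these groups overlap with the livers. Of the 6 BBSome subunits, Bbs5 (1.44) and Bbs7 (1.31) rose. The other 4 did not pass the test, with log2 fold changes from -0.22 in Bbs9 to 0.33 in Bbs4. Bbs5 would not have met the filter on the livers alone, so its rise is not independent of the filter. Bbs7 had 4.02, 4.55, 7.02, 3.69 and 5.42 CPM in livers, 13.1, 11.2, 10.6, 9.69 and 12.4 in Aldafermin + MYC tumors and 16.4, 11.5, 14.6, 13.1 and 10.5 in FGF19 + MYC tumors.

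IFT genes split. Ift172, the largest IFT-B subunit, had 29.3, 25.1, 22.7, 19.5 and 20.4 CPM in livers, 5.93, 10.6, 8.24, 10.5 and 5.75 in Aldafermin + MYC tumors and 8.15, 8.63, 8.75, 7.92 and 9.21 in FGF19 + MYC tumors, and was 2.79-fold lower in tumors (-1.48 ± 0.17; adjusted p = 1.88e-07). No tumor of these groups reached the lowest liver. Ift27, a small GTPase of the complex, fell by 1.36 on the log2 scale (adjusted p = 0.000435), from 12.6, 14.2, 11.4, 16.2 and 12.8 CPM in livers to 8.45, 3.30, 3.44, 4.50 and 5.86 in Aldafermin + MYC tumors and 4.58, 6.52, 4.26, 4.14 and 7.06 in FGF19 + MYC tumors. Ift20, which also works at the Golgi, fell by 1.00 (adjusted p = 0.00112), from 34.4, 43.6, 34.0, 46.3 and 59.2 CPM in livers to 17.9, 21.1, 21.9, 21.7 and 35.7 in Aldafermin + MYC tumors and 30.9, 17.8, 15.7, 15.3 and 21.0 in FGF19 + MYC tumors, but with overlap at the fifth Aldafermin + MYC library. For Ift20, 43.6% of the exon bases overlap genes on the other strand. Ift46 fell too (log2 fold change -0.59 ± 0.11; adjusted p = 8.77e-05).

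The tubulin-binding pair of the same complex rose: Ift74 by 0.80 ± 0.21 (adjusted p = 0.00178) and Ift81 by 0.62 ± 0.19 (adjusted p = 0.00668). For Ift81, 20.2% of the exon bases overlap a gene on the other strand. Ift74 had 3.80, 4.29, 4.06, 4.17 and 3.83 CPM in livers, 9.93, 6.33, 4.43, 6.08 and 9.29 in Aldafermin + MYC tumors and 9.82, 5.35, 6.24, 7.75 and 4.82 in FGF19 + MYC tumors, with no overlap with the livers. Ift88, needed for cilia to form at all, rose by 0.60 ± 0.16 (adjusted p = 0.00223), whereas Ift22, Ift52, Ift57 and Ift80 did not pass the test.

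Of the 5 IFT-A genes, Ift122, Ift43 and Wdr35 rose and Wdr19 fell. Ift122 had 5.38, 7.33, 5.30, 5.74 and 8.25 CPM in livers, 16.4, 17.4, 11.4, 16.3 and 11.5 in Aldafermin + MYC tumors and 10.5, 16.2, 15.2, 15.4 and 14.0 in FGF19 + MYC tumors, which gave a log2 fold change of 1.17 ± 0.18 (adjusted p = 1.14e-05). Wdr19 had 3.95, 4.44, 5.43, 3.48 and 4.54 CPM in livers, 2.65, 3.15, 2.27, 3.04 and 1.40 in Aldafermin + MYC tumors and 2.51, 1.97, 2.60, 2.88 and 2.39 in FGF19 + MYC tumors, which gave a log2 fold change of -0.81 ± 0.22 (adjusted p = 0.0029). In both genes all tumors of these groups lay on 1 side of all livers. Of the motors, the ciliary dynein subunits Dync2h1 (1.12 ± 0.20; adjusted p = 5.67e-05) and Dync2li1 (0.86 ± 0.34; adjusted p = 0.0277) rose. For Dync2li1 the mean was 1.29 ± 0.279 CPM (SD, n = 5) in livers, 4.32 ± 2.18 with Aldafermin and 1.28 ± 0.573 with FGF19, and the tumors with FGF19 overlapped with livers. It kept its call in 22 of 27 alternative fits. Dync2li1 would not have met the filter on the livers alone. The kinesins Kif3a and Kif7 did not pass the test (adjusted p = 0.256 and 0.09).

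**Figure D3:**
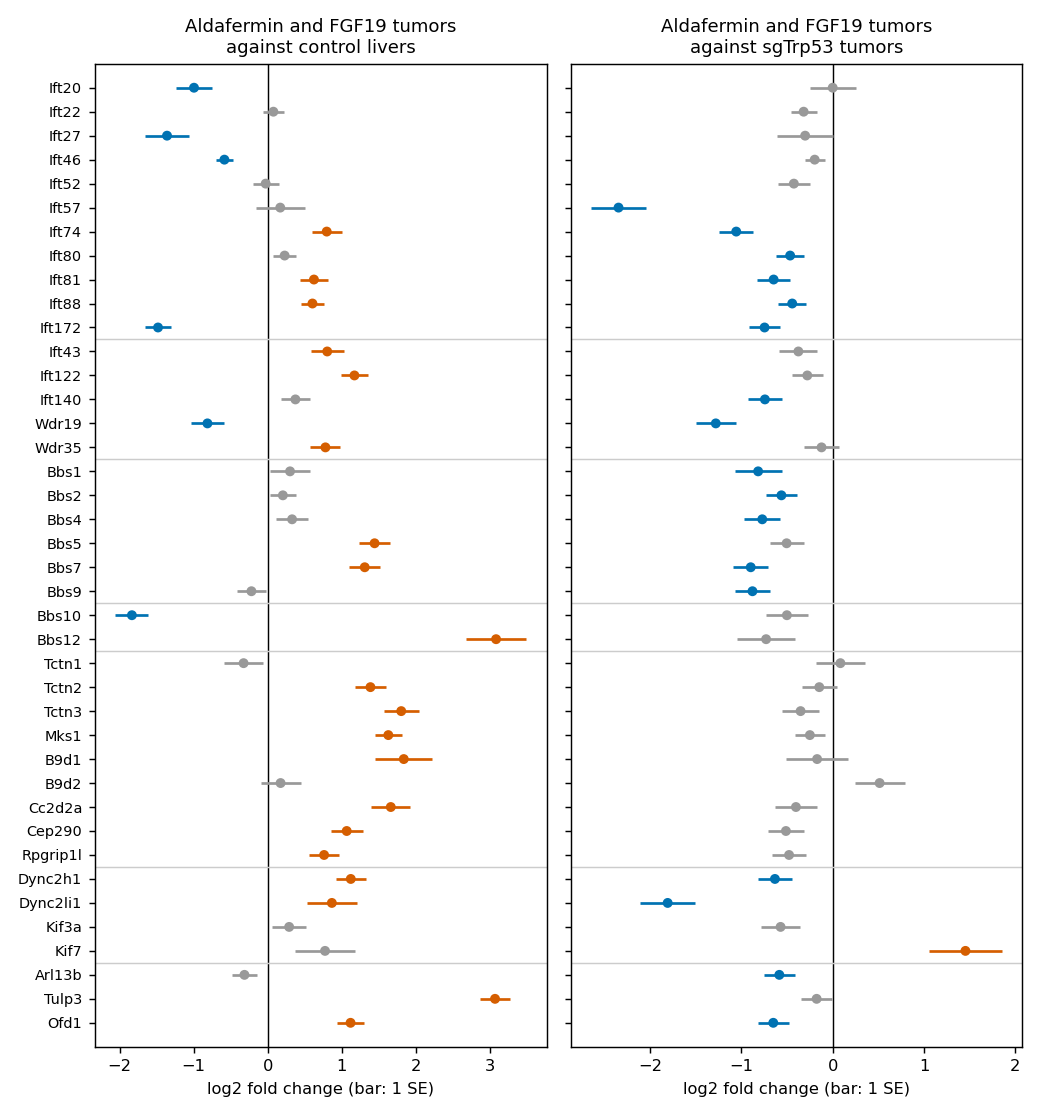
Log2 fold change of each tested cilium gene (points; bars are 1 SE), for the mean of Aldafermin + MYC and FGF19 + MYC tumors against control livers (left) and against sgTrp53 + MYC tumors (right), orange for genes past the threshold upward, blue downward and grey for the others. In the left panel 20 genes are orange and 6 blue, and in the right panel, which is a description, 1 is orange and 17 are blue.

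The next comparison asked whether the tumors of the analog differed from those of the hormone. None of the 40 cilium genes passed the threshold, and 0% of all genes tested did, by edgeR's quasi-likelihood test. An unadjusted p under 0.05 was found for 5 of the 40. The median log2 fold change of the cilium genes, Aldafermin + MYC minus FGF19 + MYC, was 0.05, against 0.02 for all genes tested. DESeq2 called 2 of the cilium genes higher and edgeR's likelihood ratio test called 1, with 0 lower in both. Of all genes tested, 1048 had an unadjusted p under 0.05, DESeq2 called 73 higher and 23 lower, and the likelihood ratio test called 52 and 7.

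The ciliary dynein subunit Dync2li1 stood out by its size. It had 1.65, 1.39, 1.19, 0.888 and 1.31 CPM in livers, 1.84, 1.06, 0.808, 1.94 and 0.738 in FGF19 + MYC tumors and 7.99, 2.38, 4.38, 3.12 and 3.73 in Aldafermin + MYC tumors. All 5 Aldafermin + MYC tumors were above all 5 FGF19 + MYC tumors, whose levels overlapped with those of livers. The log2 difference was 1.76 ± 0.38 (SE; adjusted p = 0.127 by the quasi-likelihood test, 0.00518 by DESeq2 and 0.00707 by the likelihood ratio test), and over all 27 alternative fits it ranged from 1.41 to 1.97 with an adjusted p from 0.00518 to 0.371. The gene lies at chr17:84933866-84963046 of GRCm39 and no exon of another gene overlaps it on the opposite strand.

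Ift22, a small GTPase of IFT-B, was the other gene without overlap (2 of 40 lay above and 0 below, against 1.07% and 0.391% of all genes tested), with 6.20 to 7.91 CPM in Aldafermin + MYC tumors and 4.04 to 4.84 in FGF19 + MYC tumors (0.67 ± 0.17; adjusted p = 0.186, and 0.0233 by DESeq2). Ift57 had 1.29, 0.843, 0.972, 1.5 and 1.16 CPM in livers, 0.335, 1.06, 0.628, 1.09 and 1.16 in FGF19 + MYC tumors and 3.06, 0.868, 2.93, 1.5 and 1.21 in Aldafermin + MYC tumors. Replicates 1 and 3 of the Aldafermin + MYC tumors were the high ones, the groups overlapped, and the difference of 1.15 ± 0.37 did not pass the test (adjusted p = 0.399).

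At the other end, Kif7, a kinesin that regulates Hedgehog signaling at the tip of the cilium, had 0.534, 0.496, 1.65, 1.54 and 0.786 CPM in Aldafermin + MYC tumors and 1.73, 1.31, 0.853, 1.23 and 2.74 in FGF19 + MYC tumors, with overlap (-0.66 ± 0.44; adjusted p = 0.849). For each of the other genes the difference was smaller and the groups overlapped. Within IFT-A it ran from -0.39 for Wdr35 to 0.23 for Ift43. Wdr35 had 5.10, 6.72, 4.43, 8.35 and 5.61 CPM in Aldafermin + MYC tumors and 6.59, 6.59, 9.78, 9.04 and 7.66 in FGF19 + MYC tumors. Ift43 had 10.2, 6.72, 5.55, 7.19 and 8.08 CPM in Aldafermin + MYC tumors and 8.32, 5.90, 5.75, 6.13 and 6.22 in FGF19 + MYC tumors. Within the BBSome and its chaperonin-like factors it ran from -0.21 for Bbs7, a core subunit, to 0.29 for Bbs4. Bbs4 had 4.78, 3.77, 3.20, 2.96 and 3.45 CPM in Aldafermin + MYC tumors and 3.68, 3.02, 2.47, 3.81 and 1.90 in FGF19 + MYC tumors.

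Within the transition zone the difference ran from -0.29 for Rpgrip1l to 0.26 for B9d2. Rpgrip1l, a scaffold of the gate, had 5.22, 4.89, 3.04, 5.19 and 2.97 CPM in Aldafermin + MYC tumors and 4.02, 4.99, 4.71, 6.22 and 6.05 in FGF19 + MYC tumors. B9d2 had 8.77, 7.94, 12.8, 7.50 and 14.5 CPM in Aldafermin + MYC tumors and 15.3, 8.96, 6.01, 5.37 and 7.59 in FGF19 + MYC tumors, and the groups overlapped. The lowest IFT-B gene was Ift80 (-0.24), with 4.42, 6.55, 4.22, 5.11 and 6.26 CPM in Aldafermin + MYC tumors and 6.70, 5.97, 6.28, 7.22 and 5.13 in FGF19 + MYC tumors.

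The comparison of the same 10 tumors with the sgTrp53 + MYC tumors is the one on which the list was selected, so the values that follow describe it and nothing is read from their number. Of the 40 genes, 17 (42.5%) were past the threshold as lower in the Aldafermin + MYC and FGF19 + MYC tumors, against 12.1% of all genes tested, and 1 (2.50%) as higher, against 11.6% of all genes tested. For 6 genes all 10 tumors lay below all 5 sgTrp53 + MYC tumors (2.42% of all genes tested did), and for 0 genes all lay above (3.28% of all genes tested did). The median log2 fold change was -0.49, and that of all genes tested was -0.02. The lower calls lay in IFT-B (6 of 11), the BBSome (5 of 6), IFT-A (2 of 5), the motors (2 of 4) and the membrane and centriole group (2 of 3), with 0 of 9 in the transition zone. The 4 comparisons share libraries, since the same livers or tumors stand on 1 side of several of them.

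Ift57 differed most. It had 8.83, 7.30, 7.31, 4.62 and 4.73 CPM in sgTrp53 + MYC tumors, and every one of them lay above the highest of the other 15 libraries, which had 3.06 CPM. The log2 fold change against sgTrp53 + MYC tumors was -2.35 ± 0.30 (SE), a 5.09-fold lower level. The gene lies at chr16:49519544-49591985 of GRCm39 and carries the motif shown above. For Ift57, 5.40% of the exon bases overlap a gene on the other strand. Dync2li1 had 9.59, 9.15, 12.7, 5.60 and 4.08 CPM in sgTrp53 + MYC tumors, with the highest Aldafermin + MYC tumor inside this range, and a log2 fold change of -1.81 ± 0.30.

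Wdr19 had 3.21, 5.81, 9.42, 5.76 and 6.02 CPM in sgTrp53 + MYC tumors, all above the other tumors, with a log2 fold change of -1.28 ± 0.22. Its livers lay between the tumor groups on average (4.37 ± 0.730 CPM, against 6.04 ± 2.21 in sgTrp53 + MYC tumors; SD, n = 5). Ift74 had 18.9, 14.0, 12.1, 13.3 and 14.5 CPM in sgTrp53 + MYC tumors, above all other libraries, with a log2 fold change of -1.06 ± 0.19. Bbs7 had 36.4, 19.2, 15.9, 16.3 and 26.7 CPM in sgTrp53 + MYC tumors, of which the third (15.9) and the fourth (16.3) were below the highest FGF19 + MYC tumor (16.4), and a log2 fold change of -0.90 ± 0.19. The other called BBSome genes, Bbs1, Bbs2, Bbs4 and Bbs9, had log2 fold changes from -0.88 to -0.56. For Bbs2 and Bbs4, 20.8% and 12.6% of the exon bases overlap genes on the other strand.

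Kif7 was the exception, with higher levels in the tumors of the hormone and its analog. It had 0.231, 0.728, 0.634, 0.477 and 0.200 CPM in sgTrp53 + MYC tumors, its groups overlapped, and the log2 fold change was 1.45 ± 0.40. Its levels in livers were 0.502, 0.477, 0.751, 0.888 and 1.04 CPM. B9d2 had the highest value of the transition zone (0.51 ± 0.27) and 11.2, 8.24, 5.06, 4.41 and 4.19 CPM in sgTrp53 + MYC tumors, overlapping with the other tumors. Cep290 had the lowest of the transition zone (-0.51 ± 0.20), with 6.54, 8.0, 11.4, 8.52 and 9.56 CPM in sgTrp53 + MYC tumors, and neither was past the threshold. Tulp3 and Bbs12, which differed most between tumors and livers, had 17.9 to 28.9 and 4.04 to 11.9 CPM in sgTrp53 + MYC tumors, log2 fold changes of -0.18 ± 0.17 and -0.73 ± 0.32, and were not past the threshold either. Nor were Bbs10, with 5.24, 2.77, 2.87, 1.84 and 2.46 CPM, Wdr35, with 7.20, 9.21, 8.66, 5.45 and 7.18 CPM, and Ift20, with 43.3, 19.1, 17.5, 15.5 and 13.7 CPM in sgTrp53 + MYC tumors. For Ift20 the first library held more than the other 4, and the log2 fold change was -0.001 with all libraries and 0.40 without it. The sign of this value, which is near 0, also changed when some other libraries were left out.

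**Figure D4:**
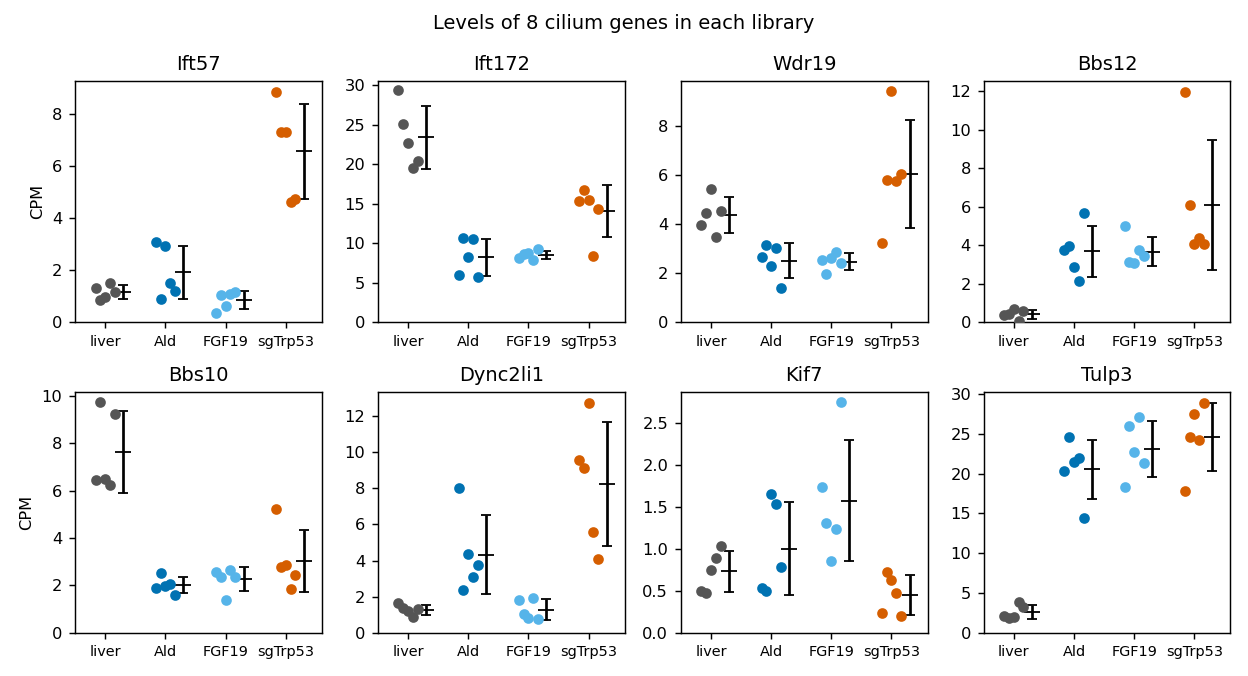
CPM (y axes, from 0, each panel with its own scale) of 8 cilium genes in each library of control livers, Aldafermin + MYC (Ald), FGF19 + MYC (FGF19) and sgTrp53 + MYC tumors (points), with the mean and SD (black, n = 5). Tulp3 and Bbs12 are low in livers, Bbs10 and Ift172 are highest in livers, and Ift57 is highest in sgTrp53 + MYC tumors.

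The difference varied with base composition. Across the 40 genes the log2 fold change against sgTrp53 + MYC tumors rose with the GC content of the transcript (Spearman's rho 0.57) and fell with the length of the gene on the genome (rho -0.42), and over the 13794 tested genes with a known transcript the same values were 0.30 and -0.23. These points are genes of the same libraries and are not independent replicates. The cilium genes had a median GC content of 48.0% and spanned a median of 36.9 kilobases, against 50.1% and 23.1 kilobases for all genes tested. With offsets that remove a trend on exon length and GC content in each library, the median log2 fold change of the cilium genes was -0.37, and 13 genes (of all genes in that fit, 12.9%) were lower, in place of 17. The part of base composition, length and the count tables in the difference was not tested. The 27 genes with no exon overlap on the opposite strand had a median of -0.47.

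**Figure D5:**
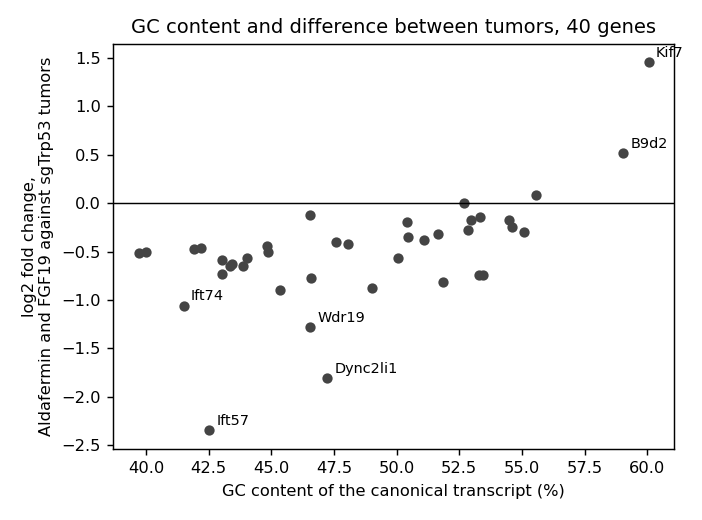
Log2 fold change of Aldafermin + MYC and FGF19 + MYC tumors against sgTrp53 + MYC tumors (y axis) by GC content of the canonical transcript in percent (x axis), for the 40 tested cilium genes (points). Genes of lower GC content lie lower on average (Spearman's rho 0.57), Ift57 lies lowest and Kif7, the gene with the highest GC content, lies highest.

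Between sgTrp53 + MYC tumors and livers, also a description, 29 of the 40 genes (72.5%) were past the threshold as higher, against 36.9% of all genes tested, and 5 (12.5%) as lower, against 33.0% of all genes tested. Their median log2 fold change was 1.12, that of all genes tested 0.07. All 6 BBSome genes and 7 of the 9 tested transition zone genes were higher, and 4 of the 5 lower genes were of IFT-B (Ift20, Ift27, Ift46 and Ift172). Bbs12 (3.81 ± 0.44), Tulp3 (3.24 ± 0.22), Dync2li1 (2.67 ± 0.39) and Ift57 (2.51 ± 0.38) had the largest log2 fold changes. Tctn3, with 6.37, 6.81, 5.75, 5.53 and 5.34 CPM in sgTrp53 + MYC tumors, led the transition zone (2.15 ± 0.26), and Ift122, with 17.6, 13.9, 18.7, 12.6 and 24.6 CPM, led IFT-A (1.45 ± 0.20). The lowest were Bbs10 (-1.33 ± 0.27) and Ift27, with 2.06, 10.4, 9.03, 7.28 and 3.35 CPM (-1.06 ± 0.36). Tctn1 had 2.57, 4.97, 5.42, 5.71 and 3.22 CPM and overlapped with the livers (-0.41 ± 0.31). Without the filter on low counts, 1 gene in place of 5 was lower and 32 were higher, and of all genes in that fit 16.2% were lower and 24.5% higher, with a median of 0.33.

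Cilium genes outside the list were counted in the same test against livers, in which 39.2% of all genes rose and 34.5% fell. Of 12 tested other transition zone and nephronophthisis genes, 9 rose and 0 fell in Aldafermin + MYC and FGF19 + MYC tumors, with a median log2 fold change of 1.20. The smallest p was that of Tmem107, a membrane protein of the gate (1.30 to 2.15 CPM in livers, 9.35 to 20.9 and 11.9 to 20.3 in the tumors, log2 fold change 3.05 ± 0.30; adjusted p = 1.91e-08). Tmem107 would not have met the filter on the livers alone, so its rise, and the count that includes it, are not independent of the filter. Of 12 other IFT and BBSome subunits 4 rose and 3 fell, and Ttc30b, an IFT-B subunit, had the smallest p (-1.74 ± 0.23; adjusted p = 1.02e-06). Of 5 tested other motor genes 2 rose and 2 fell, and of 17 basal body genes 8 rose and 5 fell. Of 9 genes of the ciliary membrane and its traffic 3 rose and 4 fell, and Pkhd1, the gene of recessive polycystic kidney disease, had the smallest p (-1.78 ± 0.15; adjusted p = 1.53e-09).

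Of 10 cilium disassembly genes 9 rose and 0 fell, beside the same 39.2% and 34.5% of all genes. The smallest p was that of Aurka, a mitotic kinase that also triggers disassembly, which rose from 1.12 ± 0.580 CPM (SD, n = 5) in livers to 95.5 ± 11.7 and 88.2 ± 9.48 in the tumors (log2 fold change 6.40 ± 0.25; adjusted p = 1.27e-13). Aurka would not have met the filter on the livers alone, so its rise is not independent of the filter. All 6 proliferation genes rose, with a median of 6.01. Genes low in livers pass the filter only through other libraries, so the counts of both lists are not independent of it. Of 8 cilium transcription factors 3 rose and 3 fell, and Rfx4 fell from 4.58 to 12.1 CPM in livers to 0 to 0.423 and 0 to 0.180 in the tumors (-6.30 ± 0.75; adjusted p = 3.24e-07). No tumor of these groups reached 1 CPM of Rfx4, so it passed the filter through other libraries and its fall is not independent of the filter.

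Of 7 tested Hedgehog pathway genes, out of 14 listed, 5 rose and 1 fell, beside 39.2% and 34.5% of all genes tested. The other listed genes did not pass the filter. The fall was in Gas1, a coreceptor (-5.64 ± 0.54; adjusted p = 1.61e-08). Gli1, a target and effector of the pathway, rose from 0.0683 to 0.438 CPM in livers to 1.52 to 4.81 in Aldafermin + MYC and 3.13 to 5.59 in FGF19 + MYC tumors (3.98 ± 0.46; adjusted p = 1.83e-07) and was at 0.609 to 1.87 CPM in sgTrp53 + MYC tumors. No liver reached 1 CPM of Gli1, so it passed the filter through tumors and its rise is not independent of the filter. Of 14 genes of motile cilia only 2 passed the filter and both rose, among them Hydin (5.00 ± 0.67; adjusted p = 1.48e-06). A gene that is low in livers can pass the filter only through other libraries, so this count is not independent of the filter.

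Levels of other liver cell markers were measured beside these genes. The summed level of 10 cholangiocyte markers was 71.6 to 162 CPM in livers, 23.4 to 85.9 in Aldafermin + MYC tumors, 18.2 to 106 in FGF19 + MYC tumors and 23.9 to 797 in sgTrp53 + MYC tumors. In Aldafermin + MYC and FGF19 + MYC tumors against livers, 4 of 6 tested markers fell (34.5% of all genes tested did) and 0 rose (39.2% did). The value of 797 was that of the second sgTrp53 + MYC library, with Krt19 at 191 CPM and Krt7 at 80.9 CPM, whereas the next highest of that group was 49.6 CPM in sum. Without this library 15 cilium genes (and 10.6% of all genes in that fit) were lower in the comparison with sgTrp53 + MYC tumors, and the median was -0.53. Sctr, the secretin receptor, was at 3 counts or fewer in every library of FGF19 + MYC tumors. The summed level of 10 stellate cell and fibroblast markers was 348 to 514 CPM in livers, 274 to 2272 in Aldafermin + MYC, 182 to 841 in FGF19 + MYC and 202 to 407 in sgTrp53 + MYC tumors. The value of 2272 was that of the third Aldafermin + MYC library, which also had the highest macrophage sum (797), and the next highest of that group were 816 and 444 CPM. For 10 endothelial markers it was 412 to 640, 80.6 to 273, 116 to 282 and 82.1 to 189 CPM in the same order. For 10 macrophage markers it was 432 to 678, 275 to 797, 272 to 450 and 145 to 237 CPM, and for 10 markers of T and NK cells, of which Trac was at the floor in each group, 4.81 to 8.47, 4.99 to 13.3, 3.17 to 6.44 and 3.13 to 17.8 CPM. The part of these cells in the levels of the cilium genes was not tested.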

How the data were processed

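Total RNA of snap frozen single tumors and control livers was made into stranded mRNA libraries and sequenced in paired ends. HISAT2 was used to align reads to the NCBI Mm39 assembly, and htseq-count with the RefSeq annotation gave the reads of each gene symbol. The values deposited by the authors are these raw counts, in 2 tables of 50559 genes. The strand setting of the counting is not given in the sources used here. The members and the other gene lists were chosen with earlier results of these data known, and the study lists a cilium category from the comparison with sgTrp53 + MYC tumors.

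The tests used edgeR 4.0.16 in R 4.3.3. The filter was 1 CPM or more by library total, before TMM scaling, in 5 libraries or more (14333 genes). Scaling was then by TMM, and the 4 groups entered 1 quasi-likelihood model without a block. Benjamini-Hochberg adjustment ran over all genes tested, with a threshold of 0.05. The spread is that between mice of a group. Mean levels are log2 CPM with a prior count of 2. A gene with 3 counts or fewer in each library of a group was called at the floor, which covers counting error only. In each role the genes with the highest and lowest fold change of each comparison were named with their values, and of the other lists the gene with the smallest p. An item of the cholangiocyte marker list is not reported here. The code was tested on simulated counts.

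Alternatives were DESeq2 1.42.0, edgeR's likelihood ratio test, RLE factors, no filter, the compared groups alone, the replicate number as a block, offsets for exon length and GC content, other prior counts and each library left out. Taking the genes without opposite-strand overlap alone was decided after seeing the data. The titles give the replicate numbers, which stand for different mice. Lengths, GC content and coordinates of genes are from GENCODE M39 (GRCm39), promoters from RefSeq (GRCm38.p6).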

Additional observations from a re-analysis of the deposited data

Results flagged for a closer look

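In 10 of 164 groups of 5 libraries, formed by the 40 cilium genes and their mean in each of the 4 groups, a single library lay far from the others by Dixon's test at the 95% level, which chance gives in about 1 of 20 groups (8.2 of 164). Replicate 1 of the sgTrp53 + MYC tumors held 43.3 CPM of Ift20, against 13.7 to 19.1 in the others, and 11.9 CPM of Bbs12, against 4.04 to 6.10. Replicate 4 of the same group had 8.35 CPM of Ift172, against 14.4 to 16.8. Replicate 5 of the Aldafermin + MYC tumors had 35.7 CPM of Ift20, against 17.9 to 21.9, and 51.0 CPM of Ift52, against 33.8 to 35.8.

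Replicate 1 of the FGF19 + MYC tumors had 8.32 CPM of Ift43 (others 5.75 to 6.22), 3.85 CPM of B9d1 (others 2.07 to 2.49) and 5.47 CPM of Dync2h1 (others 7.32 to 8.03). Replicate 3 of that group had 1.39 CPM of Bbs10, against 2.35 to 2.67. Replicate 4 of the livers had 6.21 CPM of Ift140, against 12.5 to 13.9 in the other livers.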

How the results depend on the processing

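Counts, medians and group means stayed within 1.5 times (counts) or the spread of libraries (others) in 329 cases and left these limits in 11. For Aldafermin + MYC against FGF19 + MYC tumors, DESeq2 called 2 genes higher and the likelihood ratio test 1, in place of 0. The median against livers was 0.78 without a filter and 0.78 over the genes without opposite-strand overlap. The median against sgTrp53 + MYC tumors was -0.37 with length and GC offsets, and 1 to 2 genes were higher when a library was left out. For sgTrp53 + MYC tumors against livers, 1 gene was lower and the median 1.40 without a filter, the median was 1.25 with the compared groups alone, and 1.00 to 1.23 when a library was left out. The cause was not tested. Leaving out Aldafermin + MYC replicate 5 moved the median of all genes in that comparison from 0.07 to 0.19. Ift20 against sgTrp53 + MYC tumors, near 0, changed sign in 9 alternatives, 0.040 with the replicate block and -0.15 to 0.40 with a library left out. Same-numbered libraries did not deviate together (median r -0.02 over 30 pairs, 6 above 0.1), and with the replicate block 20 genes rose and 6 fell against livers (38.6% and 34.9% of all genes), and 14 were lower against sgTrp53 + MYC tumors (10.4% of all genes).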
